A study of Mus musculus with 5 samples.

Results

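Translation initiation factor genes encode the proteins that bring a ribosome to the start codon of an mRNA, and their transcripts were compared between pro-B cells (B220+IgM-CD43+CD24+) without and with *Mef2c*, a transcription factor of B-lymphoid and other cells. They were taken as all genes whose symbol begins with Eif1, Eif2, Eif3, Eif4, Eif5 or Eif6, apart from the Y-linked *Eif2s3y*, and the brightest probe set of each symbol was used. This gave 44 genes of 17325 tested, from 46 probe sets of 23835. The cells were sorted from marrow of mice aged 9 months and measured on 5 Affymetrix Mouse Genome arrays. The study included male and female mice, and the sex behind each array is not known here. A pair of arrays held *Mef2c*-deficient cells (Vav-Cre *Mef2c* fl/fl, in which Cre acts throughout the haematopoietic system and not in B cells alone), and 3 arrays held control cells. Control mice of that age were homozygous for the floxed allele without Cre, or heterozygous (fl/+) with or without Vav-Cre, and the labels do not say which of these gave each control array, so control cells may carry Cre and 1 deleted allele. The study calls the samples independent, but no source used here says whether each came from its own mouse, so the p-values measure the spread between these samples.

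In the textbook order of initiation, eIF2 bound to GTP carries the initiator tRNA to the small ribosomal subunit, where eIF1, eIF1A and eIF3 hold the subunit open for scanning. eIF4E binds the cap of the mRNA, eIF4G links it to eIF3, and the helicase eIF4A with its helpers eIF4B and eIF4H unwinds the leader. At the start codon eIF5 triggers GTP hydrolysis, eIF5B joins the large subunit, and eIF2B recharges eIF2 with GTP for the next round. Stress kinases that phosphorylate eIF2 block eIF2B, and 4E-BP proteins, held off by mTORC1, block eIF4E. Protein synthesis is known to rise when lymphocytes begin to divide.

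The values are intensities that the authors made by robust multiarray averaging, and they appear to be e, not 2, raised to the log2 signal. A log2 fold change below is of the deposited values, and a fold named as signal is the smaller one on that reading, in which a deposited fold of 2 is 1.62 in signal. A gene was called fallen or risen at a deposited fold of at least 2 and an unadjusted limma p of at most 0.05, the thresholds of the study. No gene on the arrays had an adjusted p under 0.05 in limma (0 of 17325, with 5593 at an unadjusted p under 0.05 and 12 genes at an adjusted p under 0.05 in the methods' t-test), and the smallest was 0.0895, so every call below rests on the unadjusted p.

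Some arrays stood apart. *Mef2c* itself had 7379 and 6219 on *Mef2c*-deficient arrays, against 14006, 20854 and 17220 on control arrays, and fell by 1.34 on the log2 scale (standard error 0.29), a call lost after a further quantile normalization (−0.43), after cyclic loess (−0.32), with housekeeping centring (−0.53), with array weights (−1.25) and at a fold of 2 in signal. No source used here places its probe set against the deleted exon. Of 16 pro-B markers, 13 were measured, with summed levels of 748665 to 1445273 in *Mef2c*-deficient and 1112356 to 1791209 in control cells, and *Ighm*, the μ heavy chain gene, was at 15.2 and 77.1 in *Mef2c*-deficient against 15655 to 37349 in control cells. *Mef2c*-deficient replicate 2 had the highest summed levels of T and NK cell markers (10 of 12 measured, 57283, against 10029 on the other *Mef2c*-deficient array and 18917 to 27448 on control arrays) and of plasmacytoid dendritic cell markers (5 of 8 measured, 80071, against 11165 and 36041 to 51472). Myeloid markers (all 10 measured) summed to 2501042 and 5714503 on *Mef2c*-deficient replicates 1 and 2, against 2323254 to 4837095 on control arrays, and erythroid markers (5 of 8 measured) to 1580 and 4796, against 873 to 1037, with *Slc4a1*, the red cell anion exchanger, called risen at 2.71. Replicate 2 also had *Ebf1*, a B-lineage transcription factor, at 3026, against 29295 on the other *Mef2c*-deficient array and 29295 to 35416 on control arrays. The spiked bacterial hybridisation controls (15 probe sets) lay 1.97 and 0.12 log2 units from the 5-array mean on *Mef2c*-deficient replicates 1 and 2, against −0.43, −0.05 and −1.58 on control arrays 1 to 3. Their part in the results below was not tested.

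In *Mef2c*-deficient pro-B cells 26 of the 44 initiation factor genes fell, 1 rose (*Eif3e*) and 17 were not called. Over all genes tested 16.7% fell and 9.65% rose by the same rule. The split depended on scaling. After a further quantile normalization 6 members fell and 3 rose (8.57% and 7.93% of all genes). After cyclic loess 5 fell and 2 rose (8.35% and 6.75% of all genes). With arrays centred on housekeeping genes 3 fell and 4 rose (3.67% and 42.4% of all genes). Arrays centred on their medians gave 33 fallen and 1 risen (24.1% and 6.16% of all genes). The median log2 fold change of the 44 genes was −1.21, against 0.04 over all genes, and 40 of the 44 values were negative. The *Mef2c*-deficient pair lay wholly below the controls for 37 of the 44 genes (28.4% of all genes) and wholly above them for 3 (25.9%), and the groups overlapped for 4. An unadjusted limma p under 0.05 was reached by 33 of the 44 genes (32.3% of all genes), and an adjusted p under 0.10 by 17 (12% of all genes). The fallen genes were 1.64-fold to 4.24-fold lower in signal, with a median of 1.98-fold, and 12 of them passed a fold of 2 in signal. Without control replicate 1, 16 of the 44 genes fell (11.2% of all genes). In cells sorted in bulk, less RNA per cell and fewer cells of the type that holds it cannot be told apart.

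**Figure D1:**
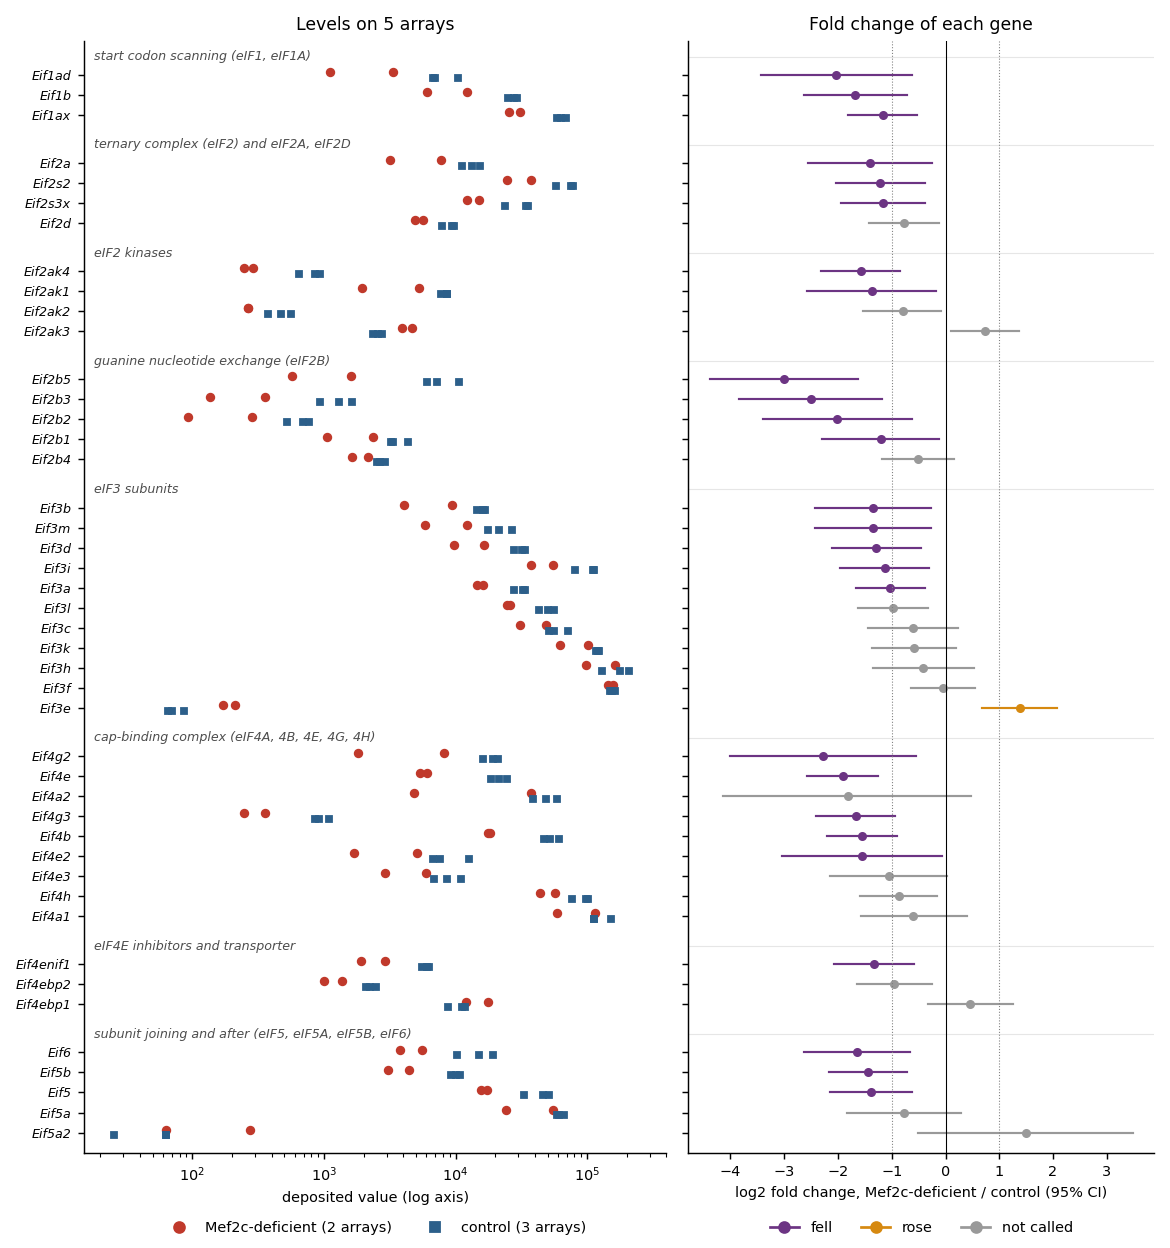
Left, deposited value (horizontal log axis) of each of the 44 genes on the 2 *Mef2c*-deficient arrays (red circles) and the 3 control arrays (blue squares), grouped by role. Right, log2 fold change of *Mef2c*-deficient over control with its 95% confidence interval from limma, coloured by call, with dotted lines at a fold of 2 in either direction. The red circles lie left of the blue squares in 37 rows, *Eif3e* is the 1 gene that rose, and *Eif2b5* lies farthest to the left of 0.

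The eIF2B complex, which swaps GDP for GTP on eIF2, had the lowest median of the 8 roles. Of its 5 subunit genes 4 fell, and their median log2 fold change was −2.01. *Eif2b5*, the catalytic ε subunit, had 1603 and 577 in *Mef2c*-deficient cells, against 7273, 6030 and 10571 in control cells. The groups were far apart, with the highest *Mef2c*-deficient value well under the lowest control value, although the *Mef2c*-deficient arrays also differed from each other by more than 2-fold. *Eif2b5* fell by 3.01 on the log2 scale (standard error 0.54, unadjusted limma p of 0.00245, adjusted p = 0.0895), or 4.24-fold in signal, the largest fall among the 44 genes. *Eif2b3*, the γ subunit that pairs with ε, had 136 and 355 in *Mef2c*-deficient cells, against 1646, 1300 and 926 in control cells, and fell by 2.51 (standard error 0.52, unadjusted limma p of 0.00454, adjusted p = 0.0907). Its *Mef2c*-deficient replicate 1 value was below the median of that array, in the range where background limits a fold. *Eif2b5* and *Eif2b3* were the only members called fallen under all 17 alternative settings that were run. The eIF2B list had 3 of 5 genes fallen and a median of −2.09 after a further quantile normalization, 3 fallen and −2.04 after cyclic loess, 4 fallen and −2.24 with median centring and 2 fallen and −1.2 with housekeeping centring, and 2 genes fell without control replicate 1 or 3.

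The regulatory subunits of eIF2B, which bind phosphorylated eIF2, moved less evenly. *Eif2b2*, the β subunit, had 284 and 93 in *Mef2c*-deficient cells, against 777, 526 and 690 in control cells, and fell by 2.01 (standard error 0.54), with replicate 2 below its array median. Its log2 fold change was −2.82 without *Mef2c*-deficient replicate 1 and −1.2 without replicate 2. *Eif2b1*, the α subunit, had 1048 and 2341 in *Mef2c*-deficient cells, against 3343, 3247 and 4327 in control cells, and fell by 1.2 (standard error 0.42). Here replicate 1 was the lower of the *Mef2c*-deficient pair, opposite to *Eif2b5* and *Eif2b2*. The call of *Eif2b2* was lost without control replicate 1 or 3, and that of *Eif2b1* without any 1 of the control arrays and without *Mef2c*-deficient replicate 1, where its log2 fold change was −0.62. *Eif2b4*, the δ subunit, was not called at a log2 fold change of −0.52 (95% confidence interval −1.19 to 0.15), and both of its *Mef2c*-deficient values, 2154 and 1643, were below the control values of 2516, 2672 and 2933.

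The promoter sequence around the start of *Eif2b5*, the gene with the largest fall, is shown beside that of *Eif3f*, the subunit gene of eIF3 that differed least between the groups, because both carry a run of pyrimidines across the annotated start. Such a run at the 5′ end of the mRNA itself is the feature of 5′ terminal oligopyrimidine mRNAs, whose translation mTORC1 controls. Sequences are from RefSeq, build GRCm38.p6, plus strand, from 65 bases before the start, and capitals mark the run that begins with C within 5 bases of the start.
*Eif2b5*, chr16:20498752-20498831: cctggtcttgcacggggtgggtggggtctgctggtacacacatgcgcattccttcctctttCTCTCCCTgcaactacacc
*Eif3f*, chr7:108934350-108934429: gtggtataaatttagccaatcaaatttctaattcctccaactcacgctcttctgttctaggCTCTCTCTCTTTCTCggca
Counted from that C, the run had 8 bases in *Eif2b5* and 15 bases in *Eif3f*. Both runs begin 4 bases before the annotated start, so part of each lies outside the annotated transcript. In *Eif2b5* further pyrimidines directly precede the capitals, so its genomic tract is longer than the marked run, while in *Eif3f* a G precedes them. A run of at least 7 bases was found in 6 of the 36 members with a promoter in the table, namely *Eif2ak4*, *Eif2b2*, *Eif2b5*, *Eif2s3x*, *Eif3f* and *Eif3l*, and in 7.64% of all 27025 genes. Of the 6 genes 4 fell, and of the other 30 genes 18 fell.

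The ternary complex list, eIF2 and the alternative tRNA carriers, had 3 of 4 measured genes fallen, at a median of −1.19. *Eif2s2*, the β subunit, had 37522 and 24444 in *Mef2c*-deficient cells, against 75898, 58060 and 78116 in control cells, and fell by 1.21 (standard error 0.32). Its other probe set had 13213 and 15275 in *Mef2c*-deficient cells, against 29853, 25157 and 27292 in control cells, at a log2 fold change of −0.95. Both probe sets thus kept the groups apart, and only the brighter passed the fold of 2. *Eif2s3x*, the X-linked γ subunit that binds GTP, had 15122 and 12226 in *Mef2c*-deficient cells, against 35517, 34166 and 23815 in control cells, and fell by 1.17 (standard error 0.3). *Eif2a*, which can deliver initiator tRNA apart from eIF2, fell by 1.41 (standard error 0.45). Without *Mef2c*-deficient replicate 2 the calls of these 3 genes were lost, at −0.9 for *Eif2s2*, −1.02 for *Eif2s3x* and −0.77 for *Eif2a*, and that of *Eif2a* was also lost without any 1 of the control arrays. *Eif2d*, another factor that binds tRNA to the small subunit, was not called at −0.77 (95% confidence interval −1.42 to −0.13), and its dimmer probe set was at 0.3.

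The 4 kinases of eIF2 went in both directions. *Eif2ak4* (GCN2), which senses uncharged tRNA, had 291 and 249 in *Mef2c*-deficient cells, against 646, 941 and 854 in control cells. Its *Mef2c*-deficient values were close to each other and under the lowest control value, and it fell by 1.58 (standard error 0.29, unadjusted limma p of 0.00262, adjusted p = 0.0895). *Eif2ak1* (HRI), the haem-regulated kinase, had 5240 and 1963 in *Mef2c*-deficient cells, against 8631, 7727 and 8605 in control cells, and fell by 1.37 (standard error 0.47), a call lost without any 1 of the control arrays and without *Mef2c*-deficient replicate 2 (−0.67), with −2.08 without replicate 1. *Eif2ak2* (PKR), activated by double-stranded RNA, was not called at −0.8 (95% confidence interval −1.53 to −0.08). *Eif2ak3* (PERK), the kinase of the endoplasmic reticulum, had 4692 and 3939 in *Mef2c*-deficient cells, against 2590, 2773 and 2381 in control cells. It was 1 of the 3 members above all control arrays, at a log2 fold change of 0.74 (95% confidence interval 0.11 to 1.37), which is under the fold of 2. It passed as risen after a further quantile normalization (1.62), after cyclic loess (1.66) and with housekeeping centring (1.55).

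In the cap-binding group, which prepares the mRNA, 5 of 9 measured genes fell (median −1.56). *Eif4e*, the cap-binding protein itself, had 6045 and 5369 in *Mef2c*-deficient cells, against 24699, 21209 and 18735 in control cells. Both *Mef2c*-deficient values were far under the lowest control value, and the spread within each group was small. *Eif4e* fell by 1.91 on the log2 scale (standard error 0.26, unadjusted limma p of 0.000693, adjusted p = 0.0895), or 2.5-fold in signal, the lowest p among the 44 genes. *Eif4b*, the helper of the helicase and a target of S6 kinase, had 17690 and 18167 in *Mef2c*-deficient cells, against 51764, 46790 and 60841 in control cells, and fell by 1.56 (standard error 0.25, unadjusted limma p of 0.00156, adjusted p = 0.0895). The *Mef2c*-deficient arrays were nearly equal for *Eif4b*, but its call was lost after a further quantile normalization, after cyclic loess and with housekeeping centring. *Eif4g3*, a scaffold related to eIF4G1, had 354 and 249 in *Mef2c*-deficient cells, against 916, 858 and 1086 in control cells, and fell by 1.67 (standard error 0.29, unadjusted limma p of 0.00207, adjusted p = 0.0895). *Eif4e*, *Eif4g3* and *Eif2ak4* were each called fallen under 16 of the 17 alternative settings, and *Eif4e* missed the fold of 2 after cyclic loess, at −0.9, while *Eif4g3* and *Eif2ak4* missed it with housekeeping centring, at −0.86 and −0.76.

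*Eif4g2*, a scaffold that works without eIF4E, had 8208 and 1830 in *Mef2c*-deficient cells, against 21097, 19226 and 16290 in control cells, and fell by 2.28 (standard error 0.67), a call lost without any 1 of the control arrays. Its log2 fold change was −3.36 without *Mef2c*-deficient replicate 1 and −1.19 without replicate 2. *Eif4a2*, a helicase, had 37725 and 4866 in *Mef2c*-deficient cells, against 58613, 38707 and 48663 in control cells. Replicate 1 lay just below the lowest control and replicate 2 far below, and *Eif4a2* was not called at −1.82 (95% confidence interval −4.13 to 0.48), but passed at −3.3 without replicate 1. *Eif4a1*, the main helicase, had 59376 and 115075 in *Mef2c*-deficient cells, against 113213, 113213 and 152771 in control cells, and was not called at −0.6 (95% confidence interval −1.58 to 0.39), with the replicates in the opposite order to *Eif4a2* and the groups overlapping. Its sign turned after cyclic loess (0.2) and with housekeeping centring (0.21), and it passed as fallen at −1.08 without replicate 2. *Eif4e2* (4EHP), a cap-binding protein that represses, fell by 1.56 (standard error 0.58, unadjusted limma p of 0.0433, adjusted p = 0.146), a call lost without any 1 of the control arrays and without *Mef2c*-deficient replicate 2 (−0.77), with −2.36 without replicate 1. *Eif4e3* and *Eif4h* were not called, at −1.06 and −0.87, with no overlap of the groups, and passed without *Mef2c*-deficient replicate 1 (*Eif4e3*, −1.57) and without replicate 2 (*Eif4h*, −1.05).

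*Eif4e* is also 1 of the 9 members (of 36 with a promoter in the table) that hold the E-box CACGTG, which MYC and related factors bind. This motif, which reads the same on both strands, was found within 250 bases before to 50 after the start in 8.09% of all 27025 genes. The members with it were *Eif1b*, *Eif3a*, *Eif3f*, *Eif3k*, *Eif4a1*, *Eif4e*, *Eif4h*, *Eif5a* and *Eif5a2*. Of these 9 genes 3 fell, and of the 27 without it 19 fell. The ETS motif CCGGAAG, searched on both strands, was in 15 of the 36 members (9.93% of all genes), of which 9 fell, and of the 21 without it 13 fell. The CCAAT box (CCAAT, both strands) was in 14 of the 36 (41.1% of all genes), of which 6 fell, and of the 22 without it 16 fell. The MEF2 consensus, searched on both strands, was in 1 of the 36 members (3.7% of all genes), *Eif3b*. The proximal of the 2 E-boxes of *Eif4e*, 64 bases before the start, and the MEF2 match of *Eif3b*, 178 bases before the start, are shown in capitals, since *Eif4e* had the lowest p and MEF2C is the factor deleted here. Both are from RefSeq, build GRCm38.p6, plus strand.
*Eif4e*, chr3:138527168-138527282: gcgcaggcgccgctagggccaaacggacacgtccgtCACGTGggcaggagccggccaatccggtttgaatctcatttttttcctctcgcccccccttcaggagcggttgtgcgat
*Eif3b*, chr5:140419090-140419169: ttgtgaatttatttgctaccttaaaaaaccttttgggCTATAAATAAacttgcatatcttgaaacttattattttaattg
A match describes these letters and says nothing of binding in these cells.

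The 3 genes that regulate eIF4E did not follow *Eif4e* as one. *Eif4ebp1* (4E-BP1), the inhibitor that mTORC1 phosphorylates, had 11981 and 17560 in *Mef2c*-deficient cells, against 11266, 11780 and 8760 in control cells. The *Mef2c*-deficient values were above the controls, replicate 1 only narrowly, and *Eif4ebp1* was not called at a log2 fold change of 0.46 (95% confidence interval −0.32 to 1.25). It passed as risen after a further quantile normalization (1.36), after cyclic loess (1.48) and with housekeeping centring (1.28). *Eif4ebp2*, a second inhibitor, was not called at −0.96, with 997 and 1374 in *Mef2c*-deficient against 2478, 2106 and 2238 in control cells, and passed as fallen without control replicate 2 (−1.01) and without *Mef2c*-deficient replicate 2 (−1.19). *Eif4enif1* (4E-T), which carries eIF4E into the nucleus and to P-bodies, had 2922 and 1914 in *Mef2c*-deficient cells, against 6048, 6333 and 5549 in control cells, and fell by 1.34 (standard error 0.29, unadjusted limma p of 0.00586, adjusted p = 0.0925). That call was lost after a further quantile normalization, after cyclic loess and with housekeeping centring.

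In eIF3, the factor with the most subunits, of 11 measured subunit genes 5 fell, *Eif3e* rose and 5 were not called, with a median of −0.97. *Eif3b*, a subunit of its core, had 4080 and 9400 in *Mef2c*-deficient cells, against 16265, 14494 and 16814 in control cells, and fell by 1.35 (standard error 0.42). *Eif3a*, the other core scaffold, had 16076 and 14585 in *Mef2c*-deficient cells, against 33479, 32749 and 27606 in control cells, and fell by 1.03 (standard error 0.25). *Eif3d*, whose human product can bind the cap, had 16470 and 9753 in *Mef2c*-deficient cells, against 32238, 33438 and 27811 in control cells, and fell by 1.29 (standard error 0.32). In each of these genes the groups stayed apart. *Eif3m* and *Eif3i* fell by 1.35 and 1.13. The calls of *Eif3b*, *Eif3m*, *Eif3i* and *Eif3a* were lost without control replicate 1 or 2, that of *Eif3b* also without control replicate 3 or *Mef2c*-deficient replicate 1 (−0.75), and those of *Eif3m* (−0.82), *Eif3d* (−0.92), *Eif3i* (−0.86) and *Eif3a* (−0.95) without *Mef2c*-deficient replicate 2.

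*Eif3f*, a subunit with an MPN domain, had 144510 and 156486 in *Mef2c*-deficient cells, against 149256, 154339 and 162132 in control cells. These values interleaved, and the log2 fold change was −0.05 (95% confidence interval −0.64 to 0.55), which turned positive at 0.18 after a further quantile normalization, 0.7 after cyclic loess and 0.77 with housekeeping centring. *Eif3h*, the other MPN subunit, overlapped too, at −0.42 (95% confidence interval −1.35 to 0.52). *Eif3l*, *Eif3c* and *Eif3k* were not called, at −0.97, −0.61 and −0.59, and *Eif3l* passed without control replicate 3 (−1.07) and without *Mef2c*-deficient replicate 1 (−1.02). *Eif3e*, a subunit that contacts eIF4G, had 171 and 210 in *Mef2c*-deficient cells, against 85.9, 69.6 and 65 in control cells, and rose by 1.38 (standard error 0.27, unadjusted limma p of 0.0037, adjusted p = 0.0899), or 1.94-fold in signal. Its probe set was dim, below the array median on all 3 control arrays and on *Mef2c*-deficient replicate 1, in a level group where all genes had a median of 0.52, and it missed the fold of 2 after cyclic loess, at 0.85.

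All 3 measured genes of start codon scanning fell, with a median of −1.68. None of the 3 was called fallen after a further quantile normalization, after cyclic loess or with housekeeping centring. *Eif1b*, a copy of eIF1, the factor that guards start codon choice, had 12149 and 6036 in *Mef2c*-deficient cells, against 28053, 29405 and 24944 in control cells, and fell by 1.68 (standard error 0.37, unadjusted limma p of 0.00644, adjusted p = 0.0938). *Eif1ax*, the X-linked eIF1A, had 30997 and 25403 in *Mef2c*-deficient cells, against 68929, 62840 and 58683 in control cells, and fell by 1.17 (standard error 0.25, unadjusted limma p of 0.00524, adjusted p = 0.0907). The spread within each group was small beside the gap between them. *Eif1ad*, which has an eIF1A-like domain, fell by 2.03 (standard error 0.55), a call lost without control replicate 3, and stood at −2.83 without *Mef2c*-deficient replicate 1 and −1.23 without replicate 2.

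Of the 5 genes for subunit joining and later steps 3 fell. *Eif5*, which activates the GTPase of eIF2, had 17204 and 15670 in *Mef2c*-deficient cells, against 51212, 46313 and 33127 in control cells, and fell by 1.38 (standard error 0.3, unadjusted limma p of 0.0055, adjusted p = 0.0912). *Eif5b*, which joins the large subunit, had 4457 and 3056 in *Mef2c*-deficient cells, against 10741, 9283 and 10017 in control cells, and fell by 1.44 (standard error 0.28, unadjusted limma p of 0.00369, adjusted p = 0.0899). *Eif6*, which keeps the large subunit from joining too early, had 5531 and 3787 in *Mef2c*-deficient cells, against 19312, 10182 and 15015 in control cells, and fell by 1.65 (standard error 0.38), a call lost without *Mef2c*-deficient replicate 2. In all 3 genes no *Mef2c*-deficient value reached a control value. Their calls were all lost after a further quantile normalization, after cyclic loess and with housekeeping centring, and that of *Eif6* also with array weights. *Eif5a*, the hypusinated factor that helps elongation, had 24039 and 54889 in *Mef2c*-deficient cells, against 66881, 58605 and 61024 in control cells, and was not called at −0.77 (95% confidence interval −1.84 to 0.29), with replicate 2 close to the controls. Without replicate 2 it passed at −1.37, and its sign turned after cyclic loess (0.12) and with housekeeping centring (0.04). Its paralogue *Eif5a2* was dim, at 63.2 and 273 in *Mef2c*-deficient against 63.2, 25.6 and 63.2 in control cells, and was not called at 1.49 (95% confidence interval −0.51 to 3.49), although it passed as risen with housekeeping centring (2.3) and without *Mef2c*-deficient replicate 1 (2.54).

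**Figure D2:**
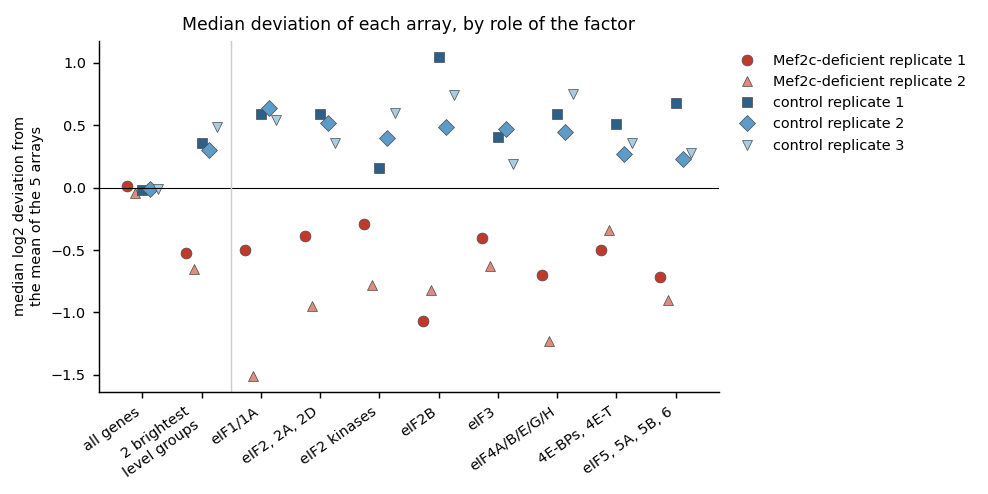
Vertical axis, median log2 deviation from the 5-array mean, for all genes, for genes of the 2 brightest of 10 level groups, and for the initiation factor genes of each role, with 1 point per array. In each of the 8 roles both *Mef2c*-deficient arrays lie below 0 and all 3 control arrays above it, and *Mef2c*-deficient replicate 2 lies lowest for the eIF1 and eIF4 roles, at −1.51 and −1.23.

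Both *Mef2c*-deficient arrays were low for the 44 genes, to different degrees. The median log2 deviation of the 44 genes from the 5-array mean was −0.48 and −0.88 on *Mef2c*-deficient replicates 1 and 2, against 0.56, 0.45 and 0.48 on control replicates 1 to 3. Replicate 2, the array with the highest summed T and NK, plasmacytoid dendritic, myeloid and erythroid marker levels, was the lower of the pair for 31 of the 44 genes. The pair differed by more than 2-fold in 16 genes, 11 of them lower on replicate 2 and 5 lower on replicate 1, while the 3 control arrays spanned more than 2-fold in 1 gene. Without replicate 1 the median log2 fold change was −1.43, against −1.05 for all genes in the 2 brightest of 10 groups by mean level. Without replicate 2 these medians were −0.99 and −0.93. Either *Mef2c*-deficient array alone thus gave a negative median, for the 44 genes and for bright genes alike. In both fits the lone array is assumed to vary like the controls.

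The medians of the roles depended on the scaling of the arrays. Apart from eIF2B, after a further quantile normalization they were −0.79 for the cap-binding group, −0.77 for start codon scanning, −0.65 for the eIF2 kinases, −0.5 for subunit joining and after, −0.38 for the ternary complex, −0.27 for the regulators of eIF4E and −0.23 for eIF3. After cyclic loess they lay between −0.69 for start codon scanning and −0.05 for eIF3, with housekeeping centring between −0.87 for start codon scanning and −0.14 for the regulators of eIF4E, and with median centring between −1.91 for start codon scanning and −1.19 for the regulators of eIF4E. In none of the 4 other scalings did the median of a role turn positive. No difference between roles was tested.

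Initiation factor genes are bright on these arrays, and bright genes were mostly lower in *Mef2c*-deficient cells. When all genes were ranked by mean level into 10 groups, 34 of the 44 members fell into the 2 brightest groups. Of these 34 genes 61.8% fell, against 36.9% of all genes in those groups, and the median log2 fold change was −1.25, against −1.01. The *Mef2c*-deficient pair lay wholly below the controls for 29 of the 34, and for 2217 of all 3465 genes in those groups. An adjusted limma p under 0.10 was reached by 13 of the 34 and 651 of the 3465, and an unadjusted limma p under 0.05 by 25 and 1532. In the brightest group 15 of 25 members fell, where 32.8% of all its genes fell, and in the next group 6 of 9 fell, where 40.9% did. Of the 44 genes 29 were below the median of their own level group. After a further quantile normalization the median of all 44 members, bright or not, was −0.45 and that of all genes in the 2 brightest groups −0.17. After cyclic loess these medians were −0.33 and −0.03. The difference between the 44 genes and the bright genes lay between −0.38 (without *Mef2c*-deficient replicate 1) and −0.06 (without replicate 2) over the settings run. This difference was not tested.

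**Figure D3:**
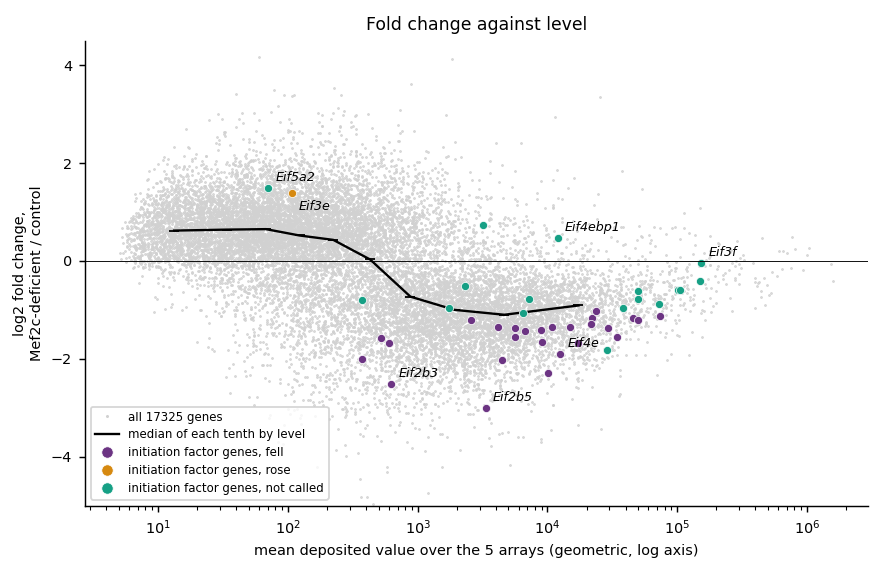
Log2 fold change of *Mef2c*-deficient over control (vertical axis) against the mean deposited value over the 5 arrays (horizontal log axis) for all 17325 genes (grey), with the median of each of the 10 level groups (black line) and the 44 initiation factor genes coloured by call. The line lies between 0.43 and 0.65 in the 5 dimmest groups and at −1.1 and −0.91 in the 2 brightest, 29 of the 44 members are below the median of their own group, and 4 genes outside the axis are not drawn.

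Genes that feed, regulate or follow initiation were counted by the same rule. By that rule 16.7% of all genes fell and 9.65% rose, and 36.9% of genes in the 2 brightest level groups fell. These shares stand beside every list that follows. Of 20 measured genes of cytosolic aminoacyl-tRNA synthetases and their scaffold, which charge the tRNAs, 12 fell and none rose (median −1.45). They included *Eprs*, with 4912 and 4457 in *Mef2c*-deficient cells, against 23033, 15181 and 14420 in control cells (log2 fold change −1.87), *Gars* (−1.89), *Rars* (−1.45) and the scaffold gene *Aimp1* (−2.18). Without control replicate 1 or 2, 5 of the 20 fell. Of 13 genes of mTORC1 and MNK signalling, which act on 4E-BPs and eIF4E, 8 fell and none rose (median −1.29). They included *Mknk1* and *Mknk2*, the kinases of eIF4E, at −1.76 and −1.29, *Rheb*, the activator of mTORC1, at −1.54, and *Tsc1*, which restrains *Rheb*, at −1.99. The count of fallen genes in this list was 2 when control replicate 1 or control replicate 3 was left out. Each of these 4 genes lost its call in at least 1 of the fits without an array, *Tsc1* only without control replicate 3 (−1.82). *Tsc1* stood at −1.23 without *Mef2c*-deficient replicate 2. Both *Mef2c*-deficient values of *Mknk1* (217 and 133) and of *Tsc1* (96.1 and 33.6) were below their array medians, in the range where background limits a fold. Of 9 helicases and modulators 5 fell (median −1.08), among them *Larp1*, which binds terminal oligopyrimidine mRNAs. *Larp1* had 14497 and 8190 in *Mef2c*-deficient cells, against 47154, 32966 and 33198 in control cells (log2 fold change −1.77). After cyclic loess the counts of fallen genes were 1 of 20, 4 of 13 and 0 of 9 in these 3 lists, with medians of −0.43, −0.59 and −0.25, and with housekeeping centring they were 3, 0 and 0. Without *Mef2c*-deficient replicate 1, 3 of the 9 helicases and modulators fell.

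For the end of the cycle, of 6 genes of termination and ribosome recycling 4 fell (median −1.36), namely *Etf1* and *Gspt1*, the release factors, at −1.44 and −1.28, *Abce1*, which splits ribosomes, at −1.69, and *Mcts1* at −1.56. The call of *Mcts1* was lost without any 1 of the control arrays and without *Mef2c*-deficient replicate 2 (−0.72). Of 5 genes of poly(A)-binding proteins and partners 3 fell (median −1.13), *Pabpc4* by 1.75, *Pabpn1* by 1.13 and *Paip1* by 2.06. The call of *Pabpn1* was lost in the same fits (−0.65 without replicate 2), and that of *Paip1* without *Mef2c*-deficient replicate 2 (−1.53), where *Pabpc4* was the 1 gene of the list that fell, and 2 of the 5 fell without any 1 of the control arrays. Of 7 elongation genes only *Eef1d* and *Eef1e1* fell, by 1.11 and 1.51, and the list had a median of −0.55, which turned positive after cyclic loess (0.17) and with housekeeping centring (0.26). *Eef1a1* and *Eef2*, the main elongation factors, were not called, with 813589 and 624921 in *Mef2c*-deficient against 788380, 788380 and 784813 in control cells for *Eef1a1*. After cyclic loess no gene of the termination and elongation lists fell, and 1 of the 5 poly(A)-binding genes did. No difference between these lists was tested.

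The integrated stress response, the programme downstream of the eIF2 kinases, was mixed. Of its 10 measured genes 5 fell and 1 rose (median −1.03), and 3 fell when control replicate 1 or 3 was left out. After a further quantile normalization and after cyclic loess 4 fell and 1 rose (medians −0.34 and −0.33). With housekeeping centring 2 fell and 2 rose (median −0.22). *Atf4*, its transcription factor, had 672 and 644 in *Mef2c*-deficient cells, against 249, 369 and 242 in control cells, and rose by 1.23 (standard error 0.3, unadjusted limma p of 0.00926, adjusted p = 0.0958). Its call was kept after a further quantile normalization (1.4), after cyclic loess (1.23) and with housekeeping centring (2.04), and lost with array weights, with the replicate block, at a fold of 2 in signal and after median centring (1). Genes that ATF4 is known to activate had log2 fold changes of either sign, with none of *Asns*, *Ddit3*, *Trib3*, *Chac1* and *Ppp1r15a* called risen. *Asns*, asparagine synthetase, had 106 and 487 in *Mef2c*-deficient cells, against 1121, 1573 and 1911 in control cells, and fell by 2.72 (−1.62 without *Mef2c*-deficient replicate 1 and −3.82 without replicate 2). Its *Mef2c*-deficient replicate 1 value was below the median of that array. *Ddit3* (CHOP) fell by 1.41. *Trib3*, a pseudokinase, had 277 and 204 in *Mef2c*-deficient cells, against 101, 98 and 178 in control cells, and was not called at 0.98, and *Chac1* and *Ppp1r15a* were not called at 0.11 and −0.23, with overlapping groups. *Nck1*, an adaptor gene, had 1311 and 941 in *Mef2c*-deficient cells, against 5805, 8124 and 10610 in control cells, and fell by 2.84 (standard error 0.36, unadjusted limma p of 0.000548, adjusted p = 0.0895), a call kept under every alternative setting run, and that of *Asns* was lost in the methods' t-test alone. Of 9 housekeeping genes, which have no role in initiation, 5 fell (median −1.03), among them *Sdha*, *Gusb*, *Hprt* and *Pgk1*. Without control replicate 1, 2 of the 9 fell, and 3 without control replicate 2. After a further quantile normalization and after cyclic loess none of the 9 fell, at medians of −0.53 and −0.21.

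**Figure D4:**
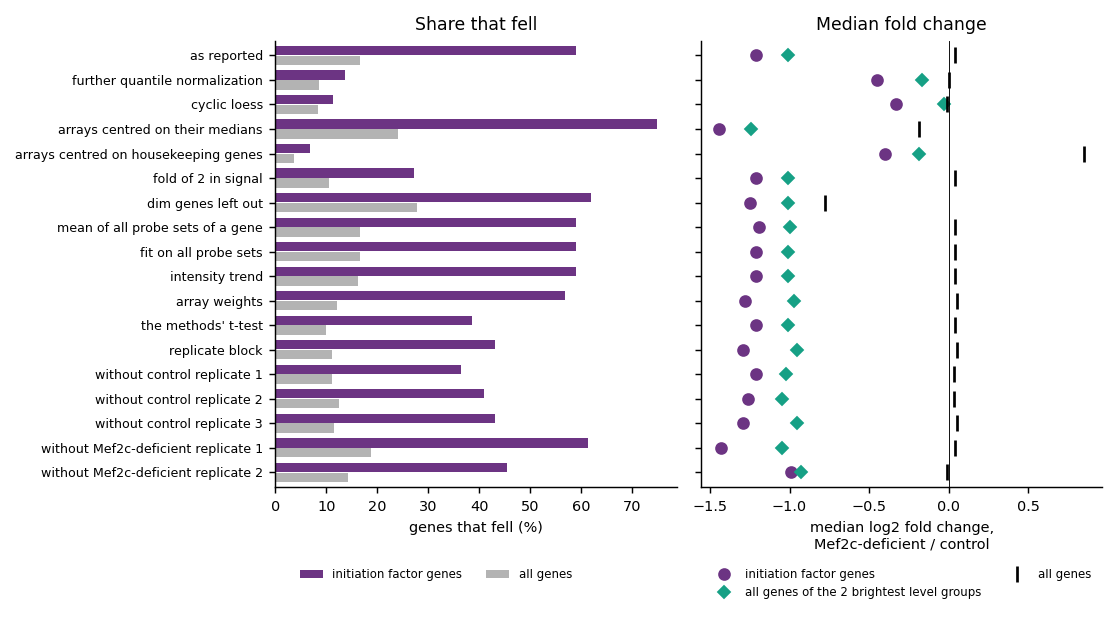
Left, share of genes that fell in percent, for the 44 initiation factor genes (purple bars) and all genes (grey bars), as reported and under 17 alternative settings. Right, median log2 fold change of *Mef2c*-deficient over control for the 44 genes (purple circles), for all genes of the 2 brightest level groups (green diamonds) and for all genes (black ticks). The share of initiation factor genes that fell lies between 6.82% with housekeeping centring and 75% with median centring, and the purple circle is left of the green diamond in every setting.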

How the data were processed

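RNA of sorted pro-B cells was hybridised to Affymetrix Mouse Genome 430 2.0 arrays. Per the study's methods the authors corrected background, applied quantile normalization and summarized probes with RMA, and left out probe sets called absent or marginal in over 4 samples. The deposited intensity values are linear, and their distributions differed between the groups. The upper quartile was 1074 and 973 on *Mef2c*-deficient replicates 1 and 2, against 1488, 1475 and 1859 on control replicates 1 to 3. The lower quartile was 65.4 and 52.8, against 42, 42.9 and 38.7. The cause of this difference was not tested. Versions of these tools are not given in the sources used here. Of 23835 probe sets 17623 had 1 gene symbol, 516 had several and 5696 had none in the platform annotation, and probe sets of several symbols (those of *Eif4a3*, *Eif1a* and *Eif3j1*) were not used.

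Here log2 values of the brightest probe set per gene were fitted with limma (version 3.58.1, R 4.3.3) on all 5 arrays, with Benjamini-Hochberg adjustment over 17325 genes, after the code was tested on simulated data. The number of arrays limits the precision. Between 314 and 430 values per array exceed 65535, the limit of a 16-bit scanner, while natural logarithms run from 1.15 to 14.7, which is the basis for reading the values as e raised to the log2 signal. The p-values do not depend on this base. Groups came from the sample labels. The members and gene lists were chosen with earlier results of these data known.

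The genes named are every called member, the brightest member of each role, *Eif4e*, *Eif4ebp1*, *Eif4a1*, *Eif2ak4*, *Eif5a*, *Eif6* and *Mef2c*, and up to 4 called genes of each pathway list with the lowest p. Other genes were named after their values were seen. *Eif4g1* and *Eif2s1* were among the fixed genes and are not analysed here. Alternatives were 4 other scalings, the fold threshold in signal, removal of dim genes, other uses of probe sets, an intensity trend, array weights, the methods' t-test, a replicate block and leaving out each array. Promoters (RefSeq, GRCm38.p6, 250 bases before to 50 after each start) were matched by gene ID for 36 of 44 members.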

Additional observations from a re-analysis of the deposited data

How the results depend on the processing

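The number of initiation factor genes that fell in *Mef2c*-deficient cells, 26 as reported, was 6 after a further quantile normalization, 5 after cyclic loess, 3 with housekeeping centring, 12 at a fold of 2 in signal, 17 in the methods' t-test and 16 to 27 when each array was left out. The number that rose, 1 as reported, was 3, 2, 4 and 0 in the first 4 of these settings, 0 with dim genes left out and 1 to 2 when each array was left out. The median log2 fold change, −1.21 as reported, was −0.45, −0.33 and −0.4 under the first 3 settings, −1.44 with median centring and −1.43 to −0.99 when each array was left out. Housekeeping centring moved the median of all genes to 0.85 and median centring moved it to −0.19, and relative to that median the 44 genes stood at −1.25 under both, as reported. The sign of *Eif3f* turned at 0.18, 0.7 and 0.77 under the first 3 settings and lay between −0.1 and 0.01 when each array was left out. That of *Eif4a1* turned at 0.2 after cyclic loess and 0.21 with housekeeping centring, and that of *Eif5a* at 0.12 and 0.04. The cause was not tested. With a replicate block on the 2 shared replicate numbers, which drops control replicate 3 from the contrast, 19 genes fell and 1 rose, at a median of −1.29. Same-numbered arrays had deviations correlated at 0.12 and −0.01, so the numbers were not taken as pairs. The other settings gave 25 to 26 fallen genes (12% to 27.7% of all genes), or 33 with median centring (24.1% of all genes).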
